A study of Mus musculus with 10 samples.

Results

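This report describes 7 genes of cholesterol synthesis and of the factor SREBP2 in obstructed mouse kidneys: Hmgcs1, Idi1, Fdft1, Sqle, Lss, Insig1 and Srebf2. They were found by gene name among the 54532 genes in the deposited table, where each name stands on a single row. All 7 passed the filter on low counts, which left 16505 genes to test. Cells build cholesterol from acetyl-CoA in a long chain of enzymes, in which mevalonate and isoprenoids come early, squalene in the middle and sterol rings late. When sterols in the endoplasmic reticulum run low, SREBP2 is released from its retention proteins, is cut in the Golgi and switches on genes for nearly every enzyme of that chain. Insig proteins hold the factor back while sterols are plentiful, and kidney tubule cells make cholesterol as well as taking it up.

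The samples were kidneys from wild-type male C57BL/6 mice whose left ureter had been tied at 8 weeks of age (unilateral ureteral obstruction, UUO), harvested 14 days later. Of these, 5 mice received PBS and 5 received dimethyl malonate (DMM), a malonate ester that inhibits succinate dehydrogenase, at 40 mg/kg every other day by intraperitoneal injection. Both groups were obstructed, so the comparison asks what DMM changed in obstructed kidneys and holds no unobstructed kidney. Each mouse gave 1 bulk RNA-seq library, with totals between 16457495 and 18078777 counts in PBS kidneys and between 15722527 and 19475833 in DMM kidneys.

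Levels are given as CPM, which are counts scaled by TMM to a common library size, fold changes are DMM over PBS on the log2 scale, and adjusted p-values come from edgeR with Benjamini-Hochberg adjustment over all tested genes. A call needed a fold change above 1.5 together with an adjusted p under 0.05. Across all 10 libraries edgeR called 0 genes higher (0%) and 0 lower (0%), while 727 genes were higher at an unadjusted p under 0.05 (4.4%) and 1071 lower (6.49%). DESeq2 called 14 higher and 36 lower in the same libraries, and without DMM replicate 1 edgeR called 50 higher and 436 lower.

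A few libraries stood apart. PBS replicate 3 and DMM replicate 1 carried a weight of 0 in the group means that the authors deposited, although the study's methods state 5 independent replicates. Results are therefore also given for the other 8 libraries, 4 per group. In those 8, edgeR called 452 of 16550 genes higher (2.73%) and 590 lower (3.56%), and an unadjusted p under 0.05 was reached by 1794 genes higher (10.8%) and 1781 lower (10.8%). For 12 genes of the interferon response, the mean log2 level relative to the PBS mean was -0.06 in DMM replicate 1 and between -3.29 and -2.78 in the other DMM libraries. For 12 proximal tubule genes it was 1.47 in PBS replicate 3, within the range of 0.71 to 1.79 of DMM replicates 2 to 5. Setting aside these libraries thus removes the DMM kidney nearest to PBS in the first list and the PBS kidney nearest to DMM in the second. Calls and counts without overlap in the 8 libraries rest on that choice and are no independent check of the 10. DMM replicate 4 differed in another way: its counts leaned to long transcripts of low GC content. Over 14508 protein-coding genes, split into 4 equal bins, its median deviation from the median library was 0.56 in the bin of longest transcripts and -0.64 in the shortest, 0.50 in the bin of lowest GC content and -0.66 in the highest. Deviations of the other 9 libraries lay between -0.04 and 0.05 in these bins. In bulk tissue, fewer cells of a type and less RNA per cell cannot be told apart, which holds for every level below.

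Hmgcs1 encodes the cytosolic HMG-CoA synthase, which makes the precursor of mevalonate. PBS replicates 1 to 5 held 182, 147, 239, 131 and 145 CPM of Hmgcs1, and DMM replicates 1 to 5 held 155, 231, 259.8, 474 and 273 CPM. The highest PBS library was replicate 3 and the lowest DMM library replicate 1, so the groups overlapped through the libraries that carried no weight in the deposited means, and DMM replicate 4 lay far above the rest. The mean was 169 ± 43.4 CPM in PBS and 278 ± 118 CPM in DMM kidneys (SD, n = 5 each). Its log2 fold change was 0.72 ± 0.27 (SE), with an unadjusted p of 0.023 and an adjusted p of 0.403 by edgeR, so that Hmgcs1 was not called. In the 8 libraries every DMM kidney was above every PBS kidney, and edgeR called Hmgcs1 higher, with a log2 fold change of 1.03 ± 0.23 and an adjusted p of 0.0322. That call was thin. Leaving out each of the 8 libraries in turn, it held without DMM replicate 2 or 4 (log2 fold changes of 1.14 and 0.75). The call was lost when any 1 of the other 6 was left out, with an adjusted p by edgeR of up to 0.109. Log2 fold changes in those 6 fits lay between 0.96 and 1.13. Without DMM replicate 4, the log2 fold change of Hmgcs1 was 0.44 over the other 9 libraries, with an adjusted p of 0.304 by edgeR, and 0.75 over the other 7 of the 8, with an adjusted p of 0.00164 by edgeR.

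Idi1 encodes the isomerase that converts isopentenyl diphosphate, the isoprenoid building block, into its allylic isomer. Its level was 19.6, 16.2, 28.8, 15.8 and 14.1 CPM in PBS replicates 1 to 5 and 18.9, 23.9, 17.5, 45.7 and 22.5 CPM in DMM replicates 1 to 5. DMM replicate 4 was again the highest and PBS replicate 3 the next, and the groups overlapped with all 10 libraries and with 8. The log2 fold change was 0.44 ± 0.28 (adjusted p of 0.556 by edgeR) and, over the set of 8, 0.74 ± 0.28 (adjusted p of 0.170 by edgeR). Without DMM replicate 4 it was 0.13 over the other 9 libraries and 0.37 over the other 7 of the 8. Both genes of these early steps thus had their top value in the library that leaned to transcripts of low GC content, and their longest transcripts were themselves of low GC content, 43.1% for Hmgcs1 and 41.9% for Idi1, in the bin of lowest GC content (up to 44.9%).

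Correcting each library for GC content and transcript length, a step chosen after seeing the data, brought Hmgcs1 in DMM replicate 4 from 474 to 395 CPM and Idi1 from 45.7 to 38.3 CPM. They were still the highest libraries of both genes. With the correction, the log2 fold change of Hmgcs1 was 0.68 in 10 libraries (adjusted p of 0.253 by edgeR) and 0.96 in 8 (adjusted p of 0.0058 by edgeR), and that of Idi1 was 0.40 and 0.65 (adjusted p of 0.393 and 0.0756 by edgeR). A lean of the library and a difference of that mouse cannot be told apart here.

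Fdft1 encodes squalene synthase, which commits isoprenoids to sterols. Its level ran from 30.9 to 43.8 CPM in PBS kidneys and from 35.2 to 43.1 CPM in DMM kidneys, with means of 36.0 ± 4.78 and 39.0 ± 2.93 CPM (SD, n = 5 each). PBS replicate 1 was the highest library of all, and the groups overlapped throughout. The log2 fold change was 0.11 ± 0.11 in 10 libraries (adjusted p of 0.683 by edgeR) and 0.12 ± 0.13 in 8 (adjusted p of 0.657 by edgeR). With the GC and length correction Fdft1 had 0.20 and 0.22 (adjusted p of 0.407 and 0.348 by edgeR). Fdft1 overlaps Ctsb on the opposite strand, a gene with a mean of 18642 counts, and the sources do not say whether counting used the strand, so the counts of Fdft1 are uncertain.

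Sqle encodes squalene epoxidase, a rate-limiting enzyme on the way from squalene to the ring. PBS replicates 1 to 5 had 107, 97.7, 116, 75.5 and 106 CPM of Sqle, and DMM replicates 1 to 5 had 93.9, 126, 132, 124 and 135 CPM. DMM replicates 2 to 5 were the highest of the 10 libraries, PBS replicate 3 came next, and DMM replicate 1 lay among the PBS kidneys. The means were 100.4 ± 15.4 and 122 ± 16.4 CPM (SD, n = 5 each). The log2 fold change was 0.29 ± 0.14 in 10 libraries, with an unadjusted p of 0.0644 and an adjusted p of 0.486 by edgeR. In the 8 libraries it was 0.42 ± 0.13 with an adjusted p of 0.0878 by edgeR, which missed the threshold although no DMM kidney fell within the PBS range. DMM replicate 4 did not stand out in Sqle, and without it the log2 fold change over the other 7 of the 8 libraries was 0.44 with an adjusted p of 0.0174 by edgeR, at a fold change under the 1.5 that a call needs.

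Lss encodes lanosterol synthase, which closes the sterol ring. It ran from 21.2 to 30.2 CPM in PBS kidneys and from 21.8 to 27.2 CPM in DMM kidneys, with means of 25.6 ± 3.76 and 24.7 ± 1.91 CPM (SD, n = 5 each). Its DMM values lay wholly within its PBS range. Fold changes were close to none, with log2 values of -0.05 ± 0.12 in 10 libraries and 0.03 ± 0.13 in 8 (adjusted p of 0.876 and 0.910 by edgeR).

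**Figure D1:**
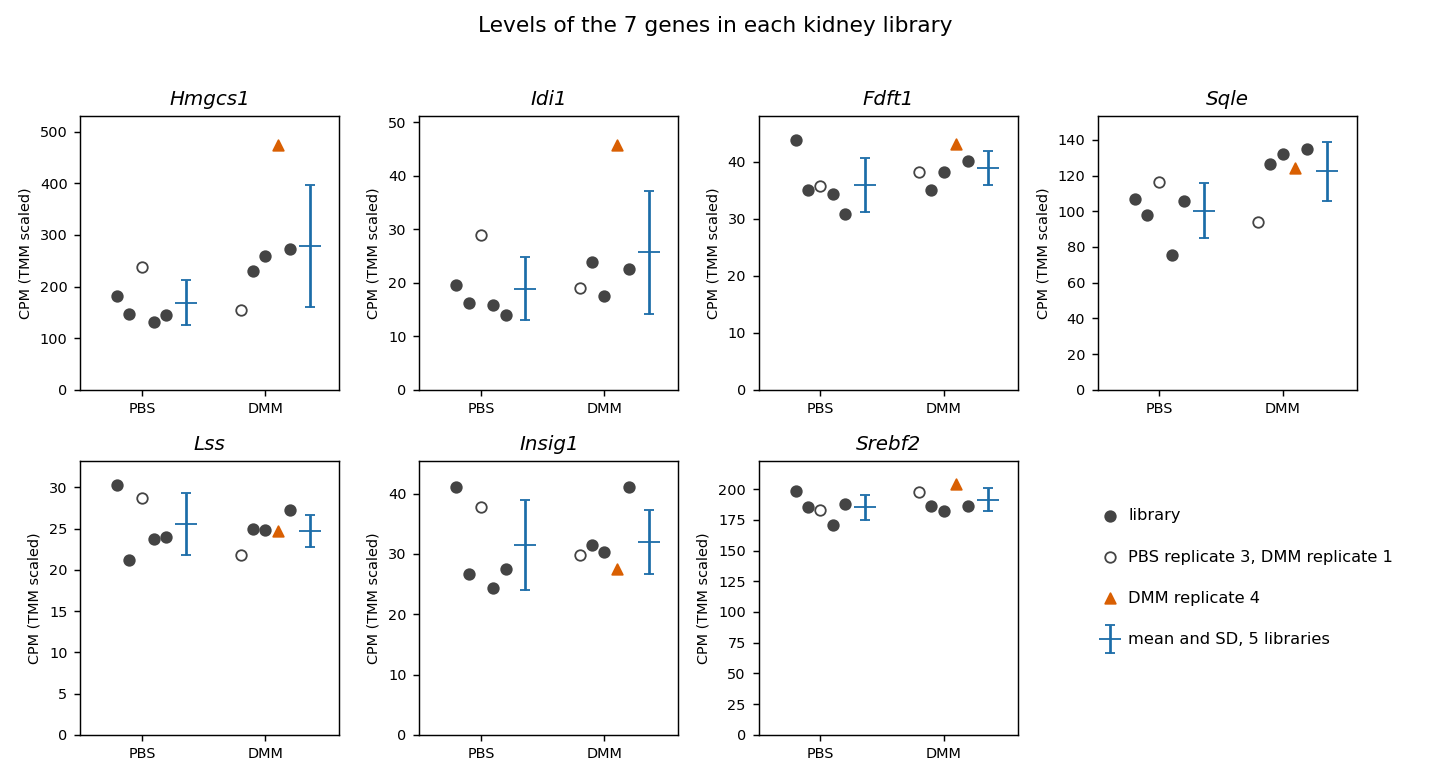
CPM after TMM scaling (vertical axis, from 0) of each of the 7 genes in the 5 PBS and 5 DMM libraries; each point is 1 library, open circles are PBS replicate 3 and DMM replicate 1, triangles are DMM replicate 4, and bars give the mean and SD of 5 libraries. DMM replicate 4 is the highest point for Hmgcs1 (474 CPM) and Idi1 (45.7 CPM), while Srebf2 stays between 171 and 204 CPM in every library.

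Among the regulators, Srebf2, which encodes SREBP2 itself, was the steadiest of the 7 genes. It measured 199, 185, 183, 171 and 188 CPM in PBS replicates 1 to 5 and 198, 186, 183, 204 and 186 CPM in DMM replicates 1 to 5. The groups overlapped almost completely, with the extremes in PBS replicate 4 and DMM replicate 4. Its coefficient of variation over the 10 libraries was 5.13%, against 10.8% for Fdft1 and 45.6% for Hmgcs1, and its log2 fold change was 0.05 ± 0.09 in 10 libraries and 0.03 ± 0.10 in 8 (adjusted p of 0.835 and 0.895 by edgeR). These are mRNA levels, and cleavage of the protein, the step at which sterols act, was not measured. With the GC and length correction, DMM replicate 4 held 255 CPM of Srebf2, whose transcript is rich in GC (57.9%), and the log2 fold change was 0.17 and 0.22 in 10 and 8 libraries (adjusted p of 0.415 and 0.266 by edgeR).

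Insig1 encodes the retention protein whose own gene is a target of SREBP2. Its level was 41.0, 26.7, 37.7, 24.3 and 27.5 CPM in PBS replicates 1 to 5 and 29.8, 31.4, 30.4, 27.5 and 41.2 CPM in DMM replicates 1 to 5. PBS replicates 1 and 3 and DMM replicate 5 were high, and the rest of both groups were mixed. Insig1 had a log2 fold change of 0.03 ± 0.17 in 10 libraries and 0.13 ± 0.20 in 8 (adjusted p of 0.956 and 0.758 by edgeR). Lss was highest and second highest in PBS replicates 1 and 3, with DMM replicate 5 next, so it shared its top 3 libraries with Insig1.

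Each regulator was set against its paralog within the same kidney. Srebf1, the gene of the sister factor that favours fatty acid synthesis, ran from 85.9 to 111 CPM in PBS kidneys. In DMM kidneys it ran from 56.5 to 93.5 CPM, with DMM replicate 4 alone at the low end. Srebf1 overlaps Rai1 on the opposite strand, a gene with a mean of 1267.5 counts, so its counts are uncertain, as are those of Fdft1. The log2 ratio of Srebf2 to Srebf1 was 0.98 ± 0.12 in PBS and 1.25 ± 0.35 in DMM kidneys (SD, n = 5 each), a difference of 0.28 with an exact two-sided permutation p of 0.0794, or 0.238 adjusted over 3 ratios. In the 8 libraries the difference was 0.29 (exact permutation p of 0.171). Without DMM replicate 4, where the ratio was 1.85, the difference was 0.13 (exact permutation p of 0.159), and without DMM replicate 3 it was 0.35 (exact permutation p of 0.0159). The log2 ratio of Insig1 to Insig2, a paralog that lies outside the strict feedback of SREBP2, was -0.75 ± 0.29 in PBS and -0.69 ± 0.16 in DMM kidneys, a difference of 0.06 (exact permutation p of 0.683). The smallest p that the permutation allows is 0.00794 with 10 libraries and 0.0286 with 8.

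Of the 7 genes, 1 was higher at an unadjusted p under 0.05 in 10 libraries, against 4.4% of all tested genes, and 0 were lower, against 6.49%. In the 8 libraries 3 were higher at that p, against 10.8%, 0 were lower, against 10.8%, and 1 was called higher, against 2.73%. In 2 of the 7, Hmgcs1 and Sqle, every DMM library lay above every PBS library of the 8, against 9.45% of all tested genes, and with all 10 libraries this held for 0 of the 7, against 0.794%. The median log2 fold change of the 7 genes was 0.11 in 10 libraries and 0.13 in 8, beside 0.02 and 0.02 over all tested genes. Hmgcs1, Idi1 and Sqle had log2 fold changes between 0.29 and 0.72 in 10 libraries and between 0.42 and 1.03 in 8, while the other 4 lay between -0.05 and 0.11 and between 0.03 and 0.13, with the sign of Insig1 and Srebf2 turning negative under library size alone (-0.05 and -0.04). With the GC and length correction, those 4 lay between -0.10 and 0.20 in 10 libraries and between -0.014 and 0.22 in 8. A difference between these genes was not tested.

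The order of libraries also split the genes. Hmgcs1 and Sqle had the same 5 top libraries, DMM replicates 2 to 5 and PBS replicate 3. PBS replicate 3 was the highest PBS library for Hmgcs1, Sqle and Idi1, and PBS replicate 1 for the other 4 genes. PBS replicate 4 was the lowest PBS library for 4 of the 7, and DMM replicate 4 was the highest DMM library for 4 of the 7. The summed level of the 7 genes was 623, 529.8, 669, 476 and 535 CPM in PBS replicates 1 to 5 and 555, 658, 685, 944 and 725 CPM in DMM replicates 1 to 5. Hmgcs1 made up 27.1 to 35.7% of that sum in PBS kidneys and 27.9 to 50.2% in DMM kidneys, the top share being that of DMM replicate 4.

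Per kilobase of the deposited gene length, the levels of the 7 genes differed widely. Averaged over the 10 libraries, Hmgcs1 had 48.7 CPM per kilobase, Srebf2 26.2, Sqle 20.1, Insig1 10.3, Fdft1 8.87, Idi1 6.37 and Lss 2.33. Insig1 and Fdft1 were neighbours in this order, with PBS means of 10.2 and 8.51 on that scale. Hmgcs1 stood above 94.4% of tested genes and Lss above 29.8%. Of the 7 genes, Hmgcs1 was thus the most abundant transcript per length and Lss, which encodes the ring-closing enzyme, the least.

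Of 16 other enzymes on the way from acetyl-CoA to cholesterol, all were tested, 10 had a positive log2 fold change in 10 libraries and 12 in 8, and the median was 0.11 and 0.21. At an unadjusted p under 0.05, 1 was higher in 10 libraries and 3 in 8, and 0 were lower in either. Over all tested genes, 4.4% were higher at that p in 10 libraries and 10.8% in 8, and 6.49% and 10.8% were lower. The median log2 fold change of all tested genes was 0.02 in both sets. These values are the background for every list below.

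Cyp51, the demethylase that acts on lanosterol, was at 80.2, 67.5, 133, 45.4 and 52.4 CPM in PBS replicates 1 to 5 and at 61.9, 98.2, 103, 93.4 and 142 CPM in DMM replicates 1 to 5. PBS replicate 3 was second only to DMM replicate 5. The log2 fold change was 0.40 ± 0.30 (adjusted p of 0.595 by edgeR) and, in the 8 libraries, 0.83 ± 0.21 (adjusted p of 0.0464 by edgeR), a call that held in 2 of 8 fits with another library left out. Cyp51 overlaps Akap9 on the opposite strand. Acat2, the thiolase of the entry step, had a log2 fold change of 0.23 ± 0.19 (adjusted p of 0.624 by edgeR) and 0.47 ± 0.15 in the 8 libraries (adjusted p of 0.0970 by edgeR).

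The enzymes that turn mevalonate into isoprenoids were mixed. Mvk and Mvd, a kinase and a decarboxylase, had log2 fold changes of -0.05 ± 0.16 and 0.12 ± 0.21, and Pmvk, the next kinase, of -0.24 ± 0.41. Pmvk was at 1.69 CPM in DMM replicate 4 and between 11.1 and 15.3 CPM in the other 9 libraries. Its longest transcript is short and of high GC content (1194 bases, 57.0%), and the corrected level in that library was 3.61 CPM. Fdps, the synthase of farnesyl diphosphate, had between 4 and 17 counts per library, too few for a comparison. Among late enzymes, Sc5d, Dhcr7 and Erg28 had log2 fold changes of 0.00, -0.14 and -0.16 in 10 libraries. Others had 0.19 (Tm7sf2), 0.14 (Hsd17b7), 0.13 (Ebp), 0.10 (Nsdhl), 0.13 (Msmo1) and -0.03 (Lbr). In the 8 libraries Sc5d, Dhcr7 and Erg28 had 0.04, -0.14 and -0.18, and the others 0.32, 0.25, 0.27, 0.26, 0.17 and 0.02 in that order. None of these was called. Tm7sf2 overlaps Vps51 on the same strand (mean of 34.5 counts).

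**Figure D2:**
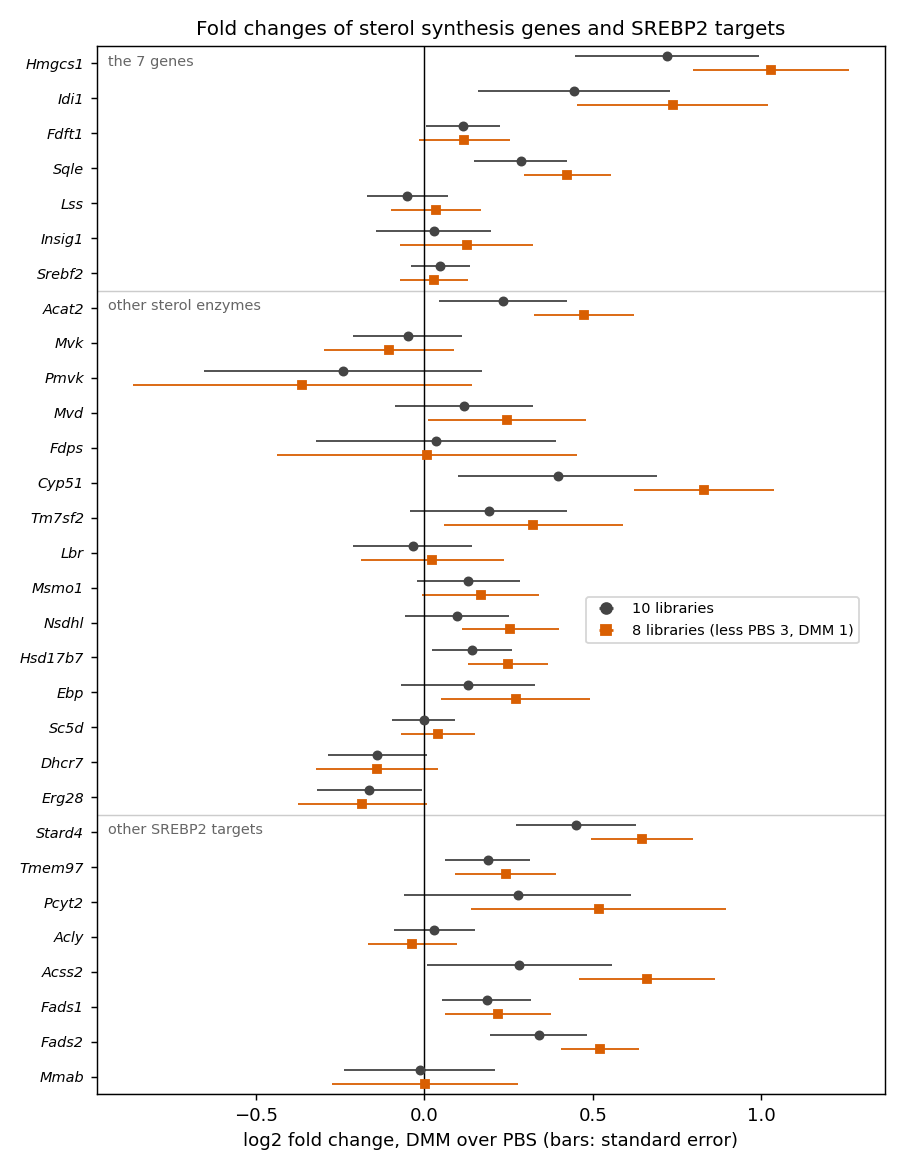
Log2 fold change of DMM over PBS (horizontal axis) for the 7 genes, 15 of the 16 other sterol enzymes and 8 tested SREBP2 targets, with all 10 libraries (circles) and with 8 (squares); bars are standard errors. Hmgcs1 has 0.72 and 1.03 and Cyp51 0.40 and 0.83, while Srebf2 has 0.05 and 0.03.

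Mevalonate also feeds side branches that make ubiquinone, dolichol and prenyl groups. Of 12 genes there, 0 passed an unadjusted p under 0.05 in 10 libraries in either direction and 2 were higher in 8, with medians of 0.12 and 0.19. Over all tested genes 10.8% were higher at that p in the 8. Nus1, a subunit of the dolichol synthase, had 272 CPM in PBS replicate 3 against 159 to 180 CPM in the other PBS libraries, and 189 CPM in DMM replicate 1 against 221 to 318 CPM in the other DMM libraries. For Nus1 the log2 fold change was 0.36 ± 0.18 (adjusted p of 0.493 by edgeR) and 0.60 ± 0.13 in the 8 libraries (adjusted p of 0.0310 by edgeR), a call that held in 1 of 8 fits with another library left out. The other gene past that p in the 8 libraries was Pdss2, a subunit of the enzyme for the ubiquinone tail, with log2 fold changes of 0.28 and 0.48. Fntb, a subunit of farnesyltransferase, had 0.19 and 0.17. It overlaps Churc1 on the same strand and Rab15 on the opposite strand (means of 249.9 and 487.3 counts), so its counts are uncertain.

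The genes that carry, cut and degrade SREBP proteins were nearly flat. Of 8, 0 passed an unadjusted p under 0.05 in 10 libraries and 1 was higher in 8, and the median log2 fold change was 0.05 and 0.05. Scap, the escort that moves SREBP to the Golgi, ran from 99.4 to 105 CPM in PBS kidneys and from 101 to 117 CPM in DMM kidneys. Mbtps2, the protease that makes the second cut, was at 70.9 CPM in DMM replicate 4 and between 30.3 and 37.7 CPM in the other 9 libraries, with log2 fold changes of 0.38 and 0.51 (adjusted p of 0.513 and 0.224 by edgeR). Without DMM replicate 4, Mbtps2 had 0.12 over the other 9 libraries and 0.21 over the other 7 of the 8 (adjusted p of 0.416 and 0.0295 by edgeR).

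Of 9 further genes known as SREBP2 targets, 8 were tested, 2 were higher at an unadjusted p under 0.05 in 10 libraries and 3 in 8, and the median log2 fold change was 0.23 and 0.38. The shares higher over all tested genes were 4.4% and 10.8%. Stard4, a carrier of cholesterol between membranes, held 69.9, 57.6, 76.2, 48.0 and 56.5 CPM in PBS replicates 1 to 5 and 57.8, 78.0, 83.4, 109 and 92.6 CPM in DMM replicates 1 to 5. DMM replicates 2 to 5 lay above all PBS kidneys, and PBS replicate 3 came close to them. Its log2 fold change was 0.45 ± 0.18 (adjusted p of 0.413 by edgeR) and 0.65 ± 0.15 in the 8 libraries (adjusted p of 0.0377 by edgeR), a call that held in 2 of 8 fits with another library left out. Fads2, a desaturase of polyunsaturated fatty acids, had log2 fold changes of 0.34 ± 0.14 and 0.52 ± 0.12 (adjusted p of 0.435 and 0.0301 by edgeR), the latter at a fold change under 1.5. Tmem97, a sterol-binding membrane protein, had 0.19 and 0.24.

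Fatty acid synthesis, which leans on SREBP1, was read from 12 genes, of which 2 were higher at an unadjusted p under 0.05 in 10 libraries and 6 in 8, with medians of 0.26 and 0.44. The background was again 4.4% and 10.8% of all tested genes. Scd1, the stearoyl-CoA desaturase, was at 125, 121, 196, 99.9 and 82.1 CPM in PBS replicates 1 to 5 and at 82.0, 241, 379.8, 209 and 315 CPM in DMM replicates 1 to 5. DMM replicate 1 was the lowest library and PBS replicate 3 the highest of its group. Scd1 had a log2 fold change of 0.98 ± 0.36 (adjusted p of 0.392 by edgeR) and 1.42 ± 0.22 in the 8 libraries (adjusted p of 0.00766 by edgeR), a call that held in 8 of 8 fits with another library left out. Elovl6, an elongase, had 0.44 and 0.57, with its top value of 104 CPM in DMM replicate 4 (0.20 and 0.30 without that library), and Gpam, which starts glycerolipid synthesis, had 0.29 and 0.47.

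Genes that remove, store or oxidise sterols were mixed. Of 8 genes of the liver X receptors and of efflux, 7 were tested, with a median log2 fold change of -0.10 in 10 libraries and -0.14 in 8, and an unadjusted p under 0.05 was reached by 1 lower gene in 10 libraries and by 2 higher and 1 lower in 8. Abcg1, which exports cholesterol, had -0.44 ± 0.16 and -0.53 ± 0.18 (adjusted p of 0.388 and 0.131 by edgeR), while Nr1h3, the gene of a liver X receptor, and Lpcat3, one of its targets, had 0.24 each in 10 libraries and 0.38 and 0.37 in 8. Lpcat3 overlaps Emg1 on the opposite strand (mean of 689.4 counts), so its counts are uncertain. Of 10 genes of storage and oxidation, 9 were tested, with medians of 0.11 and 0.11 and with 0 higher and 2 lower at that p in 10 libraries. In the 8 libraries 1 was higher and 2 were lower at that p, and 1 was called in each direction. Npc2, which lifts cholesterol out of lysosomes, held 319.7, 255, 277, 301 and 329 CPM in PBS replicates 1 to 5 and 267, 170.5, 169.6, 108 and 172 CPM in DMM replicates 1 to 5. DMM replicate 1 lay with the PBS kidneys and the other DMM kidneys below all of them. Npc2 had a log2 fold change of -0.74 ± 0.20 (adjusted p of 0.378 by edgeR) and -0.96 ± 0.17 in the 8 libraries (adjusted p of 0.0135 by edgeR), where it was called lower, as in 7 of 8 fits with another library left out but not without PBS replicate 5. Cyp7b1, an oxysterol hydroxylase, held 16.5, 20.4, 61.3, 12.7 and 10.8 CPM in PBS replicates 1 to 5 and 14.6, 40.5, 28.7, 37.0 and 70.9 CPM in DMM replicates 1 to 5. PBS replicate 3 was second only to DMM replicate 5, and DMM replicate 1 lay among the other PBS kidneys. Cyp7b1 had the largest positive fold change of this list, with log2 values of 0.66 ± 0.52 (adjusted p of 0.615 by edgeR) and 1.55 ± 0.31 in the 8 libraries (adjusted p of 0.0197 by edgeR), where it was called higher. That call held in 5 of 8 fits with another library left out, and was lost without PBS replicate 1, 4 or 5. Stard3, a sterol carrier of late endosomes, had -0.37 and -0.47, and Cyp39a1, another such hydroxylase, 0.31 and 0.33 with its top value in DMM replicate 4 (35.3 CPM). Without that library Cyp39a1 had 0.086 over the other 9 and 0.049 over the other 7 of the 8.

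Ketone body genes share the HMG-CoA intermediate with the sterol chain. Of 5, all tested, 1 was higher at an unadjusted p under 0.05 in 10 libraries and 4 in 8, with medians of 0.45 and 0.97. All tested genes gave 4.4% and 10.8% higher at that p. Oxct1, which spends ketone bodies, had log2 fold changes of 0.51 ± 0.29 and 0.97 ± 0.16 (adjusted p of 0.528 and 0.0107 by edgeR), and Bdh1 had 0.45 and 0.97.

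Markers of proximal tubule were high and low in much the same libraries as Hmgcs1, Sqle and Cyp51. The rest of the 7 genes shared that order less. Fdft1 and Lss were highest in PBS replicate 1, and Insig1 was second highest there. Idi1 was lower in DMM replicate 3 (17.5 CPM) than in PBS replicate 1 (19.6 CPM). Srebf2 was lower in PBS replicate 3 (183 CPM) than in PBS replicate 1 (199 CPM). The part of cell types in the results was not tested. All 12 proximal tubule markers were detected, and their summed level was 2753, 2856, 6467, 1314 and 2260.4 CPM in PBS replicates 1 to 5 and 2065, 5327, 6597, 5842 and 7852 CPM in DMM replicates 1 to 5. PBS replicate 3 was high and DMM replicate 1 low in this sum, as in Hmgcs1, Sqle and Cyp51, and PBS replicate 4 was the lowest of all. The most abundant of them, Lrp2, ran from 219.6 CPM in PBS replicate 4 to 2504 CPM in DMM replicate 4. With the GC and length correction Lrp2, whose longest transcript has 15460 bases, was at 1336 CPM in DMM replicate 4, below DMM replicate 3 (1343 CPM) and DMM replicate 5 (1415 CPM). In the 8 libraries 11 of the 12 were higher at an unadjusted p under 0.05 and 5 were called higher (median log2 fold change of 1.64), against 3 (Lrp2, Cubn and Slc4a4) and 0 in 10 libraries (median of 0.74). Over all tested genes, 10.8% were higher at that p in the 8 libraries and 2.73% were called higher, against 4.4% and 0% in 10. The calls of Cubn, Lrp2 and Slc4a4 held in 8, 7 and 4 of 8 fits with another library left out. Markers of the loop, distal tubule and collecting duct, led by Umod, had a median of 0.47 in 10 libraries and 0.90 in 8, with 4 of 10 called higher in the 8. Among them, Atp6v1g3, Slc12a1 and Slc12a3 had log2 fold changes of 0.37, 0.94 and 0.61 in 10 libraries and 0.32, 1.53 and 0.95 in 8. Slc12a1 and Slc12a3 were called in the 8 libraries, and these calls held in 3 and 2 of 8 fits with another library left out. The list's summed level was 3196, 2684, 4429, 2040.3 and 1794 CPM in PBS replicates 1 to 5 and 2795, 4286, 4980.4, 2010.4 and 5316 CPM in DMM replicates 1 to 5.

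Marker lists of other cell types had negative or small median log2 fold changes in 10 libraries. The summed level of 8 fibroblast markers, led by Col3a1, was 6378, 9474, 5024, 14114 and 8910.1 CPM in PBS replicates 1 to 5 and 10939, 5042, 3492, 6969 and 4025 CPM in DMM replicates 1 to 5. It was low in PBS replicate 3 and highest in PBS replicate 4. In 10 libraries 0 of the 8 markers passed an unadjusted p under 0.05 by edgeR in either direction (smallest adjusted p of 0.468), with a median of -0.55. Of the 8 markers, 3 were called lower in the 8 libraries, Lum, Col1a2 and Postn, with log2 fold changes of -1.80, -1.11 and -1.78 there and -1.10, -0.61 and -0.86 in 10 libraries. With another library left out of the 8, the call of Postn held in 8 of 8 fits, that of Col1a2 in 3 and that of Lum in 2. The summed level of 8 macrophage markers, led by Lyz2, lay between 1457 and 2004 CPM in PBS kidneys, at 1733 CPM in DMM replicate 1 and between 778 and 1233 CPM in the other DMM kidneys. Of these, 4 were lower at an unadjusted p under 0.05 in 10 libraries (Cd68, Adgre1, C1qb and C1qa, log2 fold changes between -1.04 and -0.61), and 2 were called lower in 8, Cd68 in 8 of 8 fits with another library left out and C1qb in 1 of 8. Of 8 markers of T and NK cells, led by Cd8a, 4 were lower at that p in 10 libraries (Cd3d, Cd3e, Gzmb and Cd3g, between -1.46 and -0.91) and 6 in 8. Markers of injured tubule, led by Spp1 and with Krt18 and Krt20 next by p, and of endothelium, led by Plvap and with Flt1, Kdr and Tek first by p, had medians of 0.11 and 0.05 in 10 libraries and -0.03 and 0.03 in 8, with 0 past an unadjusted p under 0.05 in either. All 12 interferon response genes, led by Irf7 and including Oas2, Cmpk2, Oasl1, Rsad2, Ifit1, Ifit2, Ifit3, Usp18, Mx1 and Isg15, were called lower in the 8 libraries (median of -3.36) and passed an unadjusted p under 0.05 in 10 (median of -1.82). The summed level of 6 adipocyte markers, led by Fabp4, was 163 CPM in PBS replicate 4 and between 25.3 and 73.4 CPM in the other 9 libraries. Markers of adrenal cortex were close to absent, with a summed level of 8 genes between 5.33 and 12.2 CPM, led by Star and Mc2r, and with Cyp11b2, Hsd3b1 and Nr5a1 at 0 counts in every library.

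The 8 genes outside these lists whose log2 CPM was most like that of the 7, by the mean Pearson r with each of them over the 10 libraries, were Mettl18, Tmem26, Zfp93, Celsr2, Col4a3, Gys2, Tbc1d19 and Hoxd8. Their mean r lay between 0.66 and 0.70, out of 14362 protein-coding candidates. These values describe 10 libraries that share the group difference and the lean of DMM replicate 4, and carry no test. Gys2, glycogen synthase of liver type, had the largest fold change among these 8, with log2 values of 1.05 and 1.66.

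The 7 genes lie on 5 chromosomes. In the mm10 coordinates of the deposited table, Hmgcs1 (ENSMUSG00000093930) is at chr13:119690379-119708260, Idi1 at chr13:8885501-8892451, Fdft1 at chr14:63145150-63179578, Sqle at chr15:59315077-59331192, Srebf2 at chr15:82147181-82205379, Lss at chr10:76531588-76557138 and Insig1 at chr5:28071363-28078662. Hmgcs1 and Idi1 share chromosome 13 and Sqle and Srebf2 chromosome 15, far apart in both cases.

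Upstream sequence was searched for the letters of a sterol regulatory element, TCACNCCAC, for its shorter form TCACNCCA, which every longer match contains, and for CCAAT, the box of NF-Y, a factor known to act beside SREBP2. The window was the 250 bases before the RefSeq start of each gene (GRCm38.p6), on both strands, and 5 of the 7 genes matched the promoter table, Sqle and Fdft1 not being among them. TCACNCCAC is held by 1.05% of 32851 promoters, TCACNCCA by 3.67% and CCAAT by 33.8%. Hmgcs1 held TCACNCCAC, Hmgcs1 and Srebf2 held TCACNCCA, and all 5 held CCAAT. Of 14 matched promoters of the other sterol enzymes, 0 held TCACNCCAC, 1 held TCACNCCA (Msmo1) and 11 held CCAAT. Of 6 matched promoters of the 9 further SREBP2 targets, 0 held TCACNCCAC or TCACNCCA and 4 held CCAAT. The stretches of Hmgcs1 and Srebf2 are shown because they hold the sterol element letters in the gene with the largest fold change of the 7 and in the one of smallest variation. Both are on the plus strand, at chr13:119690101-119690350 for Hmgcs1 and chr15:82147019-82147180 for Srebf2, where the window was ended before the gene start of the deposited table. Capitals mark TCACNCCA or TCACNCCAC and CCAAT, which appears here as its reverse complement ATTGG.
Hmgcs1: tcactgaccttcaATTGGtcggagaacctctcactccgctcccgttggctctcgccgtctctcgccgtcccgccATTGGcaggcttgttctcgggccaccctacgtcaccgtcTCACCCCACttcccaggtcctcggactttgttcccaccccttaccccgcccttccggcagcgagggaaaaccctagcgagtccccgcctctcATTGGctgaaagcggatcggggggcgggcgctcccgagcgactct
Srebf2: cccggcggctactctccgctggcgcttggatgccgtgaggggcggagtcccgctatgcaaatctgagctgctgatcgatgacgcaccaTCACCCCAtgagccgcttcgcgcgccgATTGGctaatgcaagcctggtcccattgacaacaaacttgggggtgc
In Hmgcs1 the sterol element letters begin at position -137 from the start, between CCAAT matches at -176 and -45, and in Srebf2 they begin at -162, next to a CCAAT match at -135. A match is a run of letters and not a bound site, and none of these measurements bears on binding.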

How the data were processed

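RNA of obstructed kidneys, 5 with PBS and 5 with DMM, was sequenced in bulk, 1 library per mouse. Per the submitters' processing notes the reads were aligned with HISAT2 2.0.5, and the study gives mm10 as the genome. The counting tool, the annotation release and the use of strand are not given in the sources used here. The authors deposited raw counts of reads per gene, which were used for every test, and a gene length in base pairs, used for levels per kilobase. The FPKM values that the authors deposited were not used. The deposited table also holds the authors' group means (a signal, made by dividing counts by size factors of DESeq2) and the log2 fold change, p-value and adjusted p-value of the authors' own comparison. The group means served only to find which libraries carried weight, and the log2 and p-value columns were not used.

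Libraries were grouped by their labels. The 7 genes and the lists were chosen with earlier results of these data known. Genes were filtered by filterByExpr (minimum count of 10), scaled by TMM and tested with edgeR 4.0.16 in R 4.3.3 by the quasi-likelihood F test with Benjamini-Hochberg adjustment; a standard error is the fold change divided by the root of its F statistic. Ratios of log2 CPM (prior count of 2) were compared by exact two-sided permutation. Libraries held 15722527 to 19475833 counts, and reads are not independent molecules. Named in the text were the 7 genes with every library; of each other list, the genes at an unadjusted p under 0.05 in 10 libraries and, where fewer than 3, the 3 of smallest p; the paralogs Srebf1 and Insig2; the most abundant gene and the genes at 0 of each marker list; and the 8 protein-coding genes of highest mean Pearson r. Mvk, Mvd, Pmvk, Fdps, Sc5d, Dhcr7, Erg28, Msmo1, Scap and Cyp7b1 were named outside this rule, after their values were seen. So were Tm7sf2, Hsd17b7, Ebp, Nsdhl and Lbr. Some genes of this rule, and 1 of the 3 ratios, are not reported here, though lists and totals include them. Alternatives were library size alone, DESeq2 1.42.0, RLE size factors, other filters and thresholds, the replicate number as a block, a prior count of 0.5, the 8 libraries and each library left out in turn. After seeing the data, a loess correction (span of 0.3) for the GC content and length of the longest GENCODE transcript, which 16491 of 16505 tested genes had, DESeq2 on the 8 libraries and further leave-outs among the 8 libraries were added. Promoter sequence was taken from RefSeq (GRCm38.p6). The steps were tested on simulated counts.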

Additional observations from a re-analysis of the deposited data

Results flagged for a closer look

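In 132 groups of 5 libraries (66 genes, PBS and DMM apart), a library was looked for whose gap in CPM to the nearest other library, over the range of the group, was above Dixon's 95% critical value. There were 24. A rate of 1 in 20 groups would give 6.6, but it holds for independent groups of normal values. Of the 24, 10 were interferon response genes in DMM replicate 1, so the groups were not independent and no excess is read from that rate. The cause of the 24 was not tested. In 2 of the 7 genes a library stood apart: Sqle was low in DMM replicate 1 (93.9 CPM) and Idi1 high in DMM replicate 4 (45.7 CPM).

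DMM replicate 4 stood apart in 8 groups. It was the high library for Idi1, for Mbtps2 (70.9 CPM), Elovl6 (104 CPM) and Cyp39a1 (35.3 CPM), and for the endothelial genes Flt1 (246 CPM), Kdr (132.5 CPM) and Tek (109.9 CPM), and the low one for Srebf1 (56.5 CPM). With the GC and length correction, its Mbtps2, Elovl6, Srebf1 and Kdr were at 46.0, 68.0, 77.6 and 106 CPM. The nearest other DMM libraries then held 42.5, 65.7, 79.5 and 102 CPM. Its corrected Cyp39a1, Flt1 and Tek were at 31.8, 189 and 91.8 CPM, against 21.7, 121 and 72.2 CPM in the nearest. PBS replicate 3 stood apart as the high library for Nus1 (272 CPM) and Lrp2 (1142 CPM), and PBS replicate 5 for Cd3g (9.0 CPM).

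DMM replicate 1 stood apart in 13 groups and was the high library in all of them except Sqle. Of these, 10 were interferon response genes: Oas2 (70.8 CPM), Irf7 (488 CPM), Cmpk2 (179.5 CPM), Oasl1 (106 CPM), Ifit3 (584 CPM), Ifit2 (448 CPM), Ifit1 (365.5 CPM), Usp18 (105 CPM), Mx1 (78.8 CPM) and Isg15 (207 CPM). The fibroblast genes Col1a2 (2746 CPM) and Postn (159 CPM) made up the rest.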

How the results depend on the processing

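Over the 10 libraries edgeR called 0 genes higher and 0 lower, also with library size alone, RLE size factors, other filters, the replicate number as a block and no fold threshold. The numbers of genes called higher and genes called lower were 452 and 590 over the 8 libraries, 14 and 36 with DESeq2, 315 and 678 at an unadjusted p under 0.05 with the fold threshold, and 0 to 50 and 0 to 436 with 1 library left out, the upper ends without DMM replicate 1. Alternatives chosen after seeing the data gave 795 and 680 (GC content and length correction, 8 libraries), 1129 and 1281 (the 8 libraries less DMM replicate 4) and 749 and 911 (DESeq2, 8 libraries). Hmgcs1 passed the threshold over the 8 libraries (log2 fold change of 1.03), with the correction there (0.96), less DMM replicate 4 (0.75) and with DESeq2 on the 8 (1.03). Lss turned positive over the 8 libraries (0.034), less DMM replicate 4 (0.047) and with DESeq2 on the 8 (0.034), and ranged from -0.10 to 0.017 with 1 library left out. Insig1 turned negative under library size alone (-0.051; -0.080 to 0.14 with 1 left out), as did Srebf2 (-0.039, and -0.0072 less DMM replicate 4). Insig2 turned positive over the 8 libraries (0.037), with RLE (0.00071), the CPM filter (0.0028), the correction (0.032, and 0.056 over 8), less DMM replicate 4 (0.14) and with DESeq2 on the 8 (0.038), and ranged from -0.051 to 0.067. Krt18 was 0.13 and 0.094 with the correction over 10 and 8 libraries. Tek was -0.044 over the 8 less DMM replicate 4 and ranged from -0.027 to 0.24, and Mc2r from -0.37 to 0.080. With 1 library left out, the log2 ratio difference was 0.13 to 0.35 for Srebf2 to Srebf1 and -0.016 to 0.16 for Insig1 to Insig2. The cause was not tested. Correlations between libraries of the same replicate number lay between -0.22 and 0.34. They were not set against those of unlike numbers, so whether the numbers pair mice was not tested. With 5 mice a group, the standard errors of the 7 genes, 0.09 to 0.28 on the log2 scale, limit what could be detected.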
